A study of Mus musculus with 6 samples.

Results

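Receptor tyrosine kinases are cell-surface proteins that bind a growth factor or a guidance cue outside the cell and phosphorylate tyrosines inside it. The 53 receptor genes described here are listed by subfamily, from the epidermal growth factor receptors to the Eph receptors, out of 21887 protein-coding genes. They were listed by name and function and not by a measured value, but with earlier results of these data known. Estrogen receptor alpha (ERα, a hormone-activated transcription factor) was mapped by CUT&RUN, in which an antibody directs a nuclease to the bound protein and the released DNA fragments are sequenced. The estradiol group, 3 libraries, came from adult male C57/BL6 mice given 5 µg estradiol benzoate under the skin. The vehicle group, 3 libraries, came from such males given corn oil. All males had been gonadectomized at 10 to 12 weeks of age and were treated 3 weeks later. Nuclei were isolated from the limbic system of the brain 4 h after injection.

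Ligand binding pairs or clusters these receptors, and their phosphorylated tails recruit adaptors that feed the RAS-MAPK, PI3K-AKT and phospholipase C pathways. In the brain they are known for neuron survival and synaptic change (neurotrophin receptors), energy balance (insulin and IGF1 receptors), axon guidance (Eph receptors) and the upkeep of glia and vessels. ERα bound to estradiol acts at promoters and at sites far from them, and estrogen signalling in the brain is known to interact with BDNF and IGF1 signalling.

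A peak was given to a receptor gene when it lay in the RefSeq gene span, or within 50 kb of it with that gene as the nearest protein-coding gene. Gene-end peaks lay within 1 kb of either end of the span and all others were called distal. Peaks that overlapped across libraries were joined into regions, 39374 in the series and 138 at the receptor genes. The peak lists held 11082, 14123 and 17558 peaks in estradiol replicates 1 to 3 and 5421, 13717 and 20541 peaks in vehicle replicates 1 to 3. Vehicle replicate 1 was the shortest list and vehicle replicate 3 the longest, so a count of peaks follows the length of the list it comes from. Replicate 3 of both groups has shorter labels and another style of peak name and is treated as a batch. The number of reads behind a list is unknown, and no label tells whether each library is a different animal, so each p-value measures library-to-library spread, which could be technical. The lists hold no expression values, and the tissue label was not checked here.

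Peaks were found at 40 of the 53 receptor genes in at least 1 library, 75.5%, beside 60.8% of all protein-coding genes. The 138 regions were mostly seen once. A peak in a single library made up 91 of them (65.9%, beside 58.9% of all regions), and 3 were present in all 6 libraries (2.17%, beside 7.27%). Inside the gene spans but away from their ends lay 87 regions, outside the spans 31, and at a gene end 20. Of these 20, 16 were at the end where transcription starts, 1 at the far end and 3 at an end of unknown direction. No such split is given here for all regions. Distal regions occurred at 39 receptor genes (73.6%, beside 40.6% of all genes), and gene-end regions at 17 (32.1%, beside 37.5%). The receptors with the most regions were Ntrk2 with 13, Igf1r with 11 and Alk with 10. The other 13 receptor genes had no peak in any library: Egfr, Erbb2, Erbb3, Insrr, Flt4, Mst1r, Tie1, Epha1, Epha8, Ephb4, Ephb6, Ddr2 and Ltk.

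**Figure D1:**
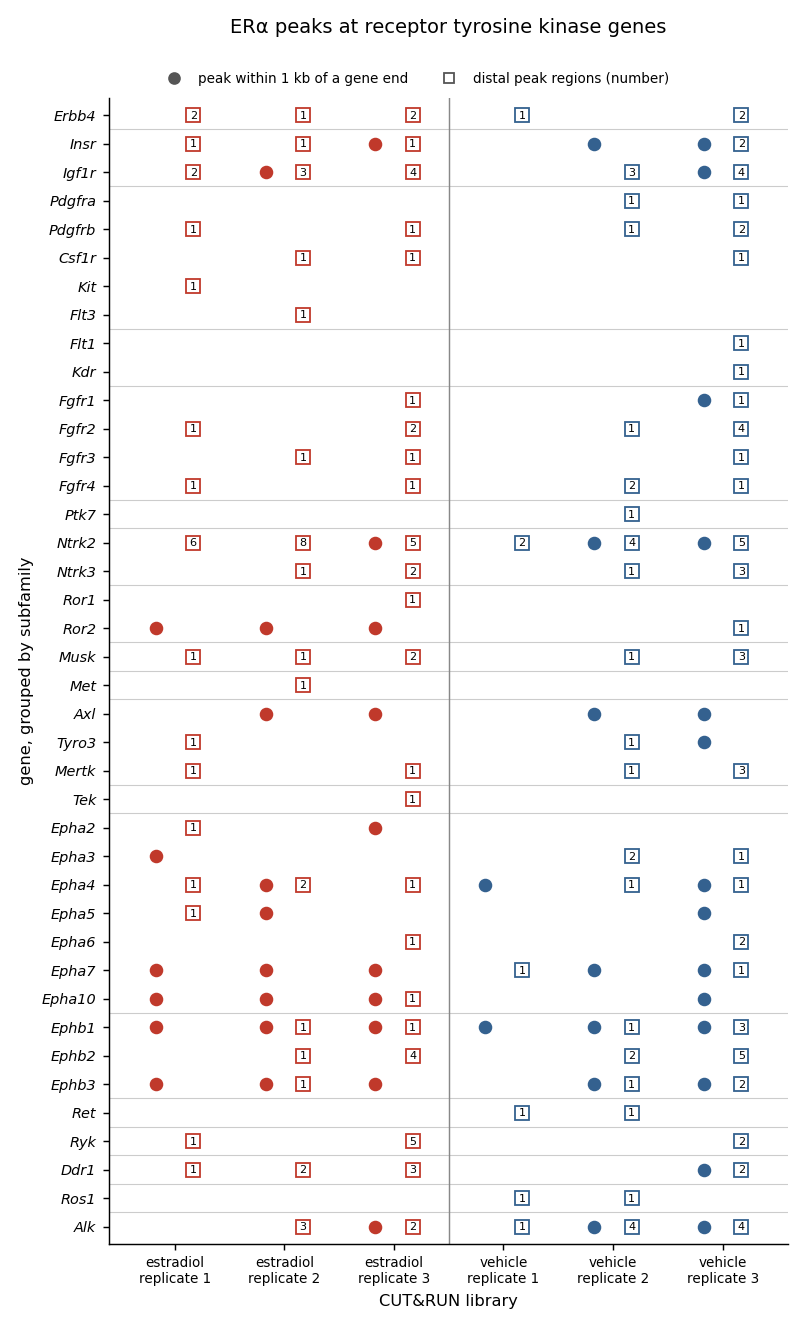
Peaks at the 40 receptor genes that had any, by library. Each column is a CUT&RUN library, estradiol left and vehicle right; a filled circle marks a peak within 1 kb of a gene end and a box gives the number of distal peak regions. Ntrk2, Epha4, Epha7 and Ephb1 had a peak in every column, and the vehicle replicate 1 column held peaks at 8 genes only.

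The Eph receptors respond to ephrins, ligands held on the surface of neighbouring cells, and steer axons and synapse formation by contact. They made up 14 of the 53 genes and 8 of the 17 with a gene-end region, so that 8 of 14 Eph genes (57.1%) and 9 of 39 other receptor genes (23.1%) had one, beside 37.5% of all genes; this difference was not tested. The gene-end regions of Epha2, Epha3 and Epha5 were each in a single library. So were those of Igf1r, Fgfr1, Tyro3 and Ddr1 among the other receptors. Peaks were found at 8, 7 and 8 Eph genes in estradiol replicates 1 to 3 and at 3, 6 and 9 in vehicle replicates 1 to 3, and the groups overlapped. Regions present in at least 4 libraries made up 16 of the 138 receptor regions (11.6%, beside 19.1% of all regions). Eph genes held 6 of these 16, beside 36 of all 138 receptor regions. Of the 5 such regions at a transcription start 4 were at Eph genes: Ephb1, Epha7, Ephb3 and Epha10. The remaining one was at Axl.

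The start of Ephb1, a receptor for ephrin-B ligands, was the only gene-end region of a receptor gene present in all 6 libraries (1.89% of the receptor genes, beside 10.3% of all genes). The region spans chr9:102354656-102354954 in mm10. Its height, the −log10 q that the authors' peak caller gave, was 23.6, 14.6 and 33.4 in estradiol replicates 1 to 3 and 4.80, 19.8 and 32.5 in vehicle replicates 1 to 3. The lowest height was in vehicle replicate 1 and the other vehicle heights lay among the estradiol ones. The fragments covering the summit, estimated from the deposited fold and p-value of the peak, numbered 20, 14 and 29 in the estradiol libraries and 8, 18 and 29 in the vehicle libraries. All 6 summits fell within 52 bp of each other. Counted from the annotated start, they lay at -79, -79 and -107 bp in the estradiol libraries and at -131, -89 and -82 bp in the vehicle libraries. Without vehicle replicate 1, Epha7 and Ephb3 joined Ephb1 as genes with a gene-end region in all libraries used, 3 genes in place of 1.

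Epha7, an ephrin-A receptor of developing cortex, had a region at its start in 5 libraries at chr4:28812937-28813102, with heights of 3.78, 4.64 and 2.28 in estradiol replicates 1 to 3 and 2.25 and 5.21 in vehicle replicates 2 and 3. These are 4 to 7 fragments at the summit. Ephb3 had a region at its start in the same 5 libraries at chr16:21204415-21204751, with heights of 5.91, 6.73 and 4.89 in estradiol replicates 1 to 3 and 7.25 and 3.93 in vehicle replicates 2 and 3. Epha10, an Eph receptor that lacks kinase activity, had a region at its start in 4 libraries at chr4:124881701-124881754. Its heights were 5.52, 4.00 and 2.21 in estradiol replicates 1 to 3 and 4.15 in vehicle replicate 3. Among Eph genes it was thus marked in every estradiol library and in 1 vehicle library, and that vehicle height lay between the estradiol ones. Epha4, a receptor for both ephrin classes, had a start region in 3 libraries at chr1:77515093-77515175, with heights of 5.01 in estradiol replicate 2, and 6.82 and 4.27 in vehicle replicates 1 and 3. A further Epha4 region 30.8 kb beyond the start, chr1:77545887-77546064, was present in 5 libraries with heights of 6.72, 5.40 and 6.59 in estradiol replicates 1 to 3 and 5.28 and 10.5 in vehicle replicates 2 and 3.

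Promoters of these genes, with those of Axl and Ntrk2, show where the peaks fell relative to sequence. The windows below run 5′ to 3′ along the transcript, from 250 bases before to 50 bases after the start annotated in RefSeq (GRCm38.p6, the mm10 assembly). They are shown because peaks of 3 or more libraries fell in them, with the first of the annotated starts of Epha7; the window of Ephb3 is left out since its summits lay at -283 to -142 bases from the start, in 4 of 5 libraries beyond the window. Capitals mark the bases covered by the peaks of the largest number of libraries: all 6 at Ephb1 (101 bases), 5 at Epha7 (35 bases), 4 at Epha10 (25 bases), 3 at Epha4 (42 bases), 3 at Axl (21 bases) and 3 at Ntrk2 (37 bases). The windows are chr9:102354644-102354943 on the minus strand for Ephb1, chr4:28812881-28813180 on the plus strand for Epha7, chr4:124881535-124881834 on the plus strand for Epha10, chr1:77515039-77515338 on the minus strand for Epha4, chr7:25788684-25788983 on the minus strand for Axl and chr13:58806319-58806618 on the plus strand for Ntrk2, the neurotrophin receptor gene described further on.
Ephb1: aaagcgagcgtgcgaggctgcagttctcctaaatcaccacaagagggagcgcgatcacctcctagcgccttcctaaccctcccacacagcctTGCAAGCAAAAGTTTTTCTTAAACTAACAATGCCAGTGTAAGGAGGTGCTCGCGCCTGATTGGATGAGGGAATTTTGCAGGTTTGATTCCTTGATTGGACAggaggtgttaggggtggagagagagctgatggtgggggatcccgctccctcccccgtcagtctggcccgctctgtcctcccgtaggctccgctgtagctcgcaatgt
Epha7: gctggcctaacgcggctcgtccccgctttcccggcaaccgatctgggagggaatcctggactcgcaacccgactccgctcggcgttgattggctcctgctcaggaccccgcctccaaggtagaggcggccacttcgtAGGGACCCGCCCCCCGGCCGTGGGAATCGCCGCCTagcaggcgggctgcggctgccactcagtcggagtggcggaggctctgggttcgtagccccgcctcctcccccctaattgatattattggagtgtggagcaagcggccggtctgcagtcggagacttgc
Epha10: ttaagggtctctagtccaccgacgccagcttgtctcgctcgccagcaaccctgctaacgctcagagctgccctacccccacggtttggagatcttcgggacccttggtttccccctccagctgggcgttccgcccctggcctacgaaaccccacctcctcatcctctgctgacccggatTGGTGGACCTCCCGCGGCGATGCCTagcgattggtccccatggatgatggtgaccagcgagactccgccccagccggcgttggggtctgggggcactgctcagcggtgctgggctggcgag
Epha4: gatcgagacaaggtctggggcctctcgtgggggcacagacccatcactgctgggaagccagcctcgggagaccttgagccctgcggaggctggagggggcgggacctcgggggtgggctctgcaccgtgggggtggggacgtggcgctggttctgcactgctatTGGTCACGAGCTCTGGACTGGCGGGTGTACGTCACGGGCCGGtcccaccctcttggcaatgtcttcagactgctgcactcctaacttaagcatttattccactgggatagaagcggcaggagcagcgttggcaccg
Axl: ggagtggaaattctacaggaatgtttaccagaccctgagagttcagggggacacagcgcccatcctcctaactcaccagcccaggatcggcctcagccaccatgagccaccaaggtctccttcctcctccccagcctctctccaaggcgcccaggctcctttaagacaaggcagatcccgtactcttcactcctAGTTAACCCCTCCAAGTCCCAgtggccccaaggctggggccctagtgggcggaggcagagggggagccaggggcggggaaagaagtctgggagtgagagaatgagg
Ntrk2: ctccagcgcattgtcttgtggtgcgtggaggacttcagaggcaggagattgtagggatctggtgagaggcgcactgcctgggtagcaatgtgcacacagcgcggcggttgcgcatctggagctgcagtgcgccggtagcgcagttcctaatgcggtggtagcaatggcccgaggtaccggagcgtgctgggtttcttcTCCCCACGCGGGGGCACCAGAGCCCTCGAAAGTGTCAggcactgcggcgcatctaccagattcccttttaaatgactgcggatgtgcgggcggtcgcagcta

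The capitals in the Ephb1 window hold 2 copies of the CCAAT box, both read as ATTGG on this strand, and the window holds no GGTCA on either strand. The capitals of Epha7 hold a GC box (GGGCGG on either strand) and those of Epha4 a GGTCA, the arm of the estrogen response element. A CCAAT box, read as ATTGG, lies partly in the capitals of Epha4 and likewise in those of Epha10. Epha10 has 2 copies of GGTCA in its window, neither touching the capitals. The full element, GGTCA followed after 3 bases by TGACC, was in none of 52 promoter windows of 45 receptor genes, and in 11 of 21263 windows of all protein-coding genes (0.0517%). The arm GGTCA on either strand was in 17 of the 52 receptor windows (32.7%), 39.4% of all windows and 39.8% of the 2128 windows that touched a region found in all 6 libraries. GC boxes were in 71.2% of receptor windows, 46.2% of all windows and 73.3% of those 2128, and CCAAT boxes in 26.9%, 38.2% and 65.6%. The cyclic AMP element TGACGTCA was in 3.85% of receptor windows and 2.23% of all windows, the AP-1 element TGANTCA in 5.77% and 6.99%, and the NRF1 element in 5.77% and 8.57%. Every motif was searched on both strands, the full estrogen element contains its arm, and a match is a description of the letters only.

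Ntrk2 encodes TrkB, the receptor for brain-derived neurotrophic factor, and carried the other 2 receptor regions present in all 6 libraries. Both lie inside the gene. The taller, chr13:59041021-59041161, is 234.5 kb from the start in a span of 327.5 kb. Its heights were 15.6, 28.6 and 42.0 in estradiol replicates 1 to 3 and 7.27, 26.9 and 50.6 in vehicle replicates 1 to 3, with an estimated 15, 25 and 37 summit fragments in the estradiol libraries and 10, 24 and 41 in the vehicle libraries. In both groups the order of heights was that of the list lengths, and the groups overlapped. In each of the estradiol lists the peak was taller than 94.3%, 98.4% and 98.5% of all peaks, and in the vehicle lists taller than 79.6%, 98.0% and 98.8%. The lower one, chr13:59073715-59073877, 267.2 kb from the start, had heights of 5.01, 6.78 and 10.4 in estradiol replicates 1 to 3 and 3.16, 3.70 and 14.1 in vehicle replicates 1 to 3. With Ephb1, Ntrk2 made 2 of 53 receptor genes (3.77%) with a region in all libraries, beside 13.1% of all genes.

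The other regions at Ntrk2 were in 4 libraries or fewer. A region beside the second one, chr13:59073957-59074067, and another 11.8 kb beyond the far end, chr13:59145725-59145920, were each in estradiol replicates 1 and 2 and in vehicle replicates 2 and 3. At the start of Ntrk2, chr13:58806409-58806570, the height was 6.49 in estradiol replicate 3, and 4.13 and 13.2 in vehicle replicates 2 and 3. Another 2 Ntrk2 regions were each in 2 estradiol libraries and no vehicle library: 1.24 kb inside the start, with heights of 4.00 and 3.50 in estradiol replicates 1 and 2, and 285.1 kb inside, with 2.35 and 6.28 in estradiol replicates 2 and 3. Ntrk3, which encodes the neurotrophin receptor TrkC, had 5 regions, none at a gene end and none in more than 2 libraries. One of them, chr7:78346457-78346555, had heights of 5.59 and 3.89 in estradiol replicates 2 and 3 and no vehicle peak.

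Igf1r, the receptor for insulin-like growth factor 1, held the tallest peak of any receptor gene. It lies 176.8 kb inside the gene at chr7:68129106-68129310, with heights of 7.46, 15.3 and 32.9 in estradiol replicates 1 to 3 and 20.3 and 52.0 in vehicle replicates 2 and 3. The estimated summit fragments were 9, 15 and 30 in the estradiol libraries and 19 and 43 in those 2 vehicle libraries, while the short list of vehicle replicate 1 held no peak there. The remaining 10 Igf1r regions were each in at most 3 libraries. Among them chr7:68198439-68198572, 246.2 kb inside, was in estradiol replicates 2 and 3 only (5.40 and 8.40), and chr7:68041575-68041670, 89.3 kb inside, was the tallest receptor peak seen in a single library (11.7 in estradiol replicate 3, 12 summit fragments). Another, chr7:68118213-68118261, reached 6.77 in vehicle replicate 3 alone. Insr, the insulin receptor, had a region inside the gene at chr8:3221090-3221290, with heights of 3.18, 5.86 and 7.52 in estradiol replicates 1 to 3 and 6.0 in vehicle replicate 3. A second Insr region at a gene end, chr8:3279556-3279638, was in estradiol replicate 3 (4.92) and in vehicle replicates 2 and 3 (4.88 and 8.0). Insrr, the third gene of the subfamily, had none.

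**Figure D2:**
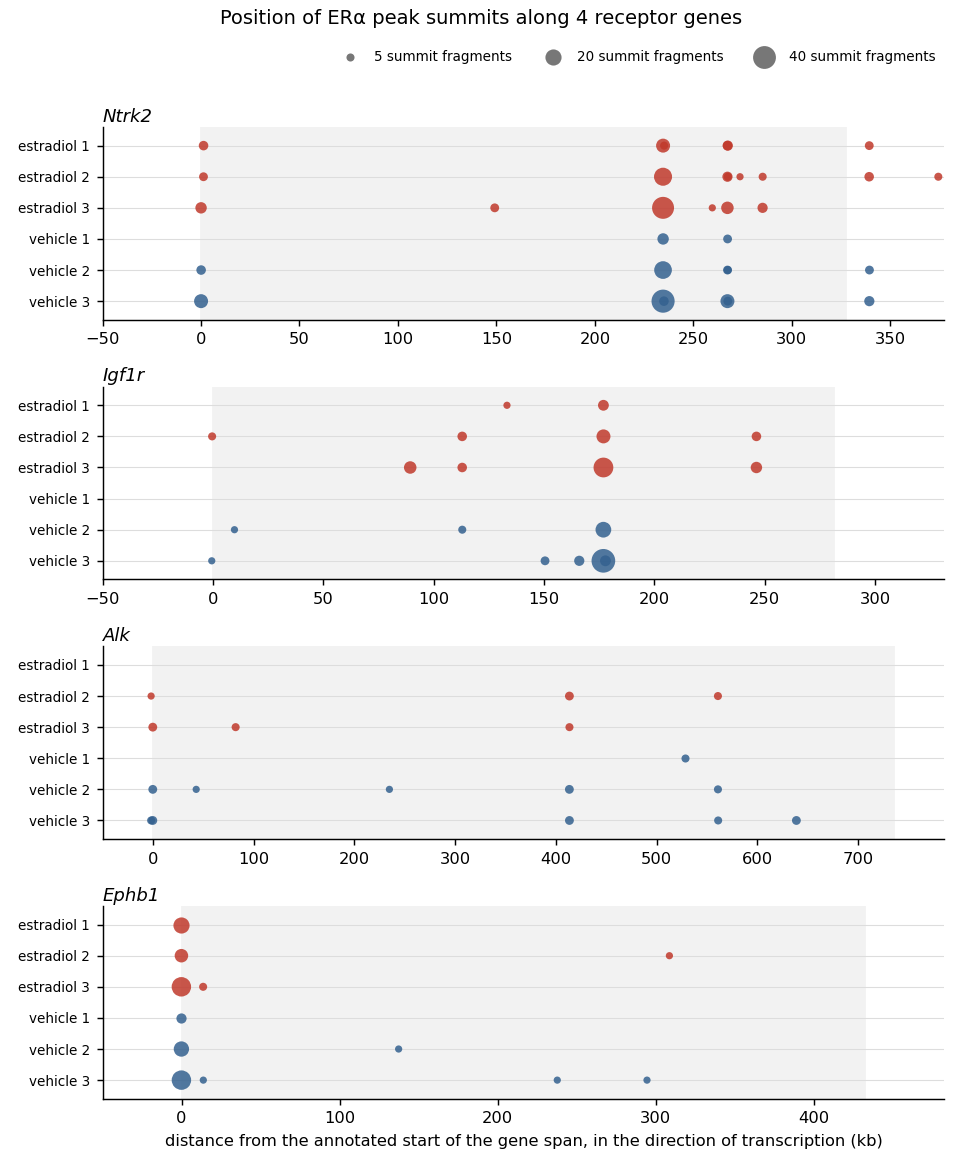
Summits along Ntrk2, Igf1r, Alk and Ephb1. The horizontal axis is the distance from the annotated start in kb, the grey band is the gene span, each row is a library with estradiol above vehicle, and the point area grows with the estimated number of fragments at the summit. Large points stack at 234.5 kb in Ntrk2, 176.8 kb in Igf1r and the start of Ephb1 in both groups.

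Erbb4, the neuregulin receptor of the epidermal growth factor receptor subfamily and known for its role in inhibitory neurons, was the only one of 4 genes there with peaks. It spans 1077 kb and had 6 regions, each in 1 or 2 libraries. A region 501.1 kb inside, chr1:68607369-68607491, had heights of 5.50 and 5.23 in estradiol replicates 1 and 3, and one 1.77 kb inside the start, chr1:69106762-69106810, had 4.72 and 3.62 in the same libraries. Neither had a vehicle peak, but a separate peak close to the second and not overlapping it, chr1:69106639-69106707, had a height of 5.07 in vehicle replicate 3.

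Ddr1 and Ror2 were the receptor genes with a region in all 3 estradiol libraries and no vehicle library, 2 of 53 (3.77%) beside 0.982% of all genes. Ddr1, a receptor for collagen that is expressed in oligodendrocytes, had this region inside the gene at chr17:35685133-35685261, 19.5 kb from the start. Its heights were 2.15, 3.62 and 4.75 in estradiol replicates 1 to 3, from 4, 5 and 6 estimated summit fragments. Ror2, a receptor for Wnt5a, had the region at its far end, chr13:53109637-53109776, inside the span. Its heights were 4.45, 7.15 and 3.37 in the estradiol libraries, from 5, 7 and 5 fragments. The deposited lists end at a height of about 2, and no receptor peak in them had fewer than 4 estimated summit fragments. At a height of at least 5 neither region remained in all 3 estradiol libraries, and with lists cut to equal length the count was 0. Both genes also had peaks of vehicle replicate 3 in other regions. At Ddr1 these reached 6.24 near the start, and 7.38 and 8.88 at 20.9 and 33.2 kb before it. The region at 20.9 kb also had 2.82 and 4.43 in estradiol replicates 2 and 3, and that at 33.2 kb had 2.28 in estradiol replicate 3. At Ror2 the vehicle peak, inside the gene, had a height of 2.19. No receptor gene had a region in all 3 vehicle libraries and no estradiol library, beside 0.192% of all genes; without vehicle replicate 1 or without vehicle replicate 3 there was 1, at Pdgfra or at Ret.

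The looser pattern of 2 or 3 estradiol libraries and no vehicle library was met at 6 receptor genes (Erbb4, Igf1r, Ntrk2, Ntrk3, Ddr1 and Ror2), 11.3% beside 4.65% of all genes. The reverse pattern was met at 2, Pdgfra and Ret, 3.77% beside 3.9%. Of those 6 genes 5 span 100 kb or more, and the part of length in this pattern was not tested. Among genes of that length the share was 21.7% of 23 receptor genes and 16.6% of 2429 genes in all. The share with a region in all 3 estradiol and no vehicle libraries was then 4.35%, Ror2 alone, beside 4.16%. Pdgfra, a platelet-derived growth factor receptor and marker of oligodendrocyte precursors, had heights of 3.51 and 6.59 in vehicle replicates 2 and 3 at chr5:75157223-75157303. Ret, the receptor for the GDNF family, had 4.73 and 2.84 in vehicle replicates 1 and 2 at chr6:118179767-118179838.

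**Figure D3:**
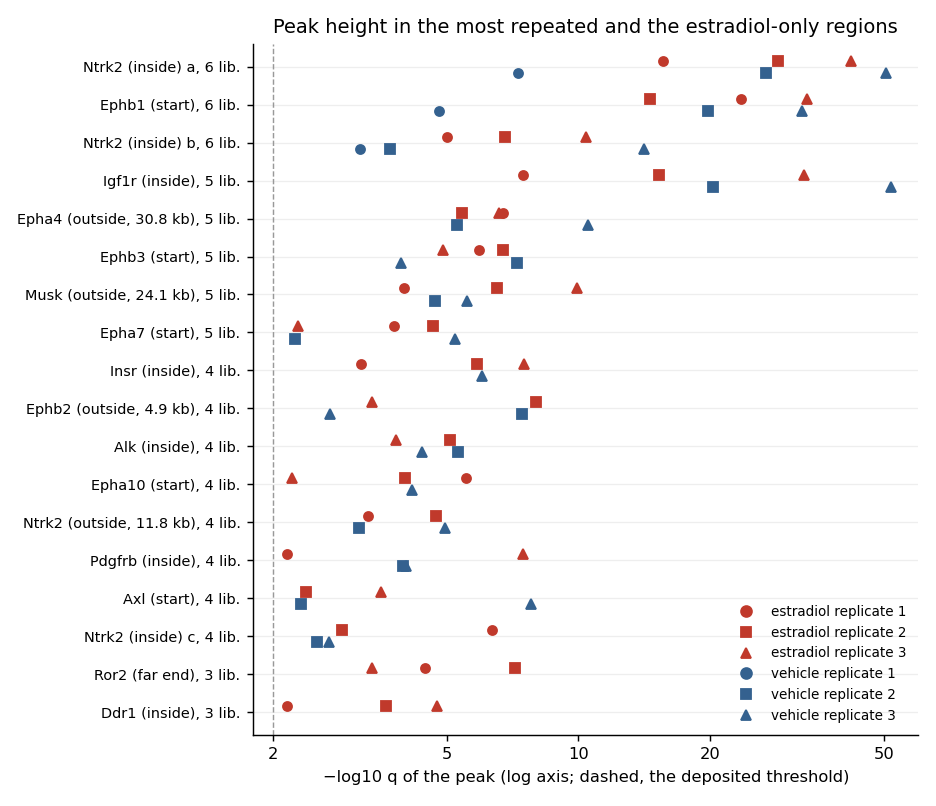
Height of each peak, as −log10 q on a log axis, in the 16 receptor regions present in at least 4 libraries and the 2 present in all estradiol and no vehicle libraries. Red marks are estradiol libraries, drawn above the blue vehicle marks of the same region, with the replicate given by shape and the lowest deposited height dashed. The taller Ntrk2 region and those of Ephb1 and Igf1r exceed 30 in replicate 3 of both groups, and Ddr1 and Ror2 stay between 2.15 and 7.15.

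Regions at the other subfamilies were mostly in a single library, as were the receptor regions as a whole (65.9%). Those in 4 or more libraries were at Pdgfrb, Axl, Musk and Alk. Pdgfrb, the platelet-derived growth factor receptor of pericytes, had a region inside the gene at chr18:61068497-61068621 with heights of 2.15 and 7.47 in estradiol replicates 1 and 3 and 3.97 and 4.03 in vehicle replicates 2 and 3. A second Pdgfrb peak was in vehicle replicate 3 alone at 6.40. Csf1r, the microglial receptor for colony-stimulating factor 1, had a region in estradiol replicate 3 (4.90) and vehicle replicate 3 (4.63). Kit and Flt3, receptors best known in blood-cell development, had 1 region each, in estradiol replicate 1 and estradiol replicate 2. The vascular receptors Flt1 and Kdr, which bind VEGF, had 1 region each in vehicle replicate 3, and Tek, the angiopoietin receptor, had 1 in estradiol replicate 3.

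All 4 fibroblast growth factor receptor genes had peaks, 14 regions in all and none in more than 3 libraries. A region 32.7 kb beyond Fgfr2 at chr7:130129709-130129793 was in estradiol replicate 1 (2.48) and in vehicle replicates 2 and 3 (2.99 and 5.56), and a neighbouring Fgfr2 peak in estradiol replicate 3 alone reached 6.36. Fgfr4 had a region 10.0 kb beyond the gene in estradiol replicate 3 (2.48) and vehicle replicates 2 and 3 (2.66 and 4.72). The Fgfr1 gene-end peaks, 2 in number, came from vehicle replicate 3 alone, and Fgfr3 had 3 distal regions in a single library each.

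Axl, Tyro3 and Mertk encode receptors for Gas6 and protein S, known for the clearance of dying cells. Axl had a start region at chr7:25788721-25788821 with heights of 2.38 and 3.53 in estradiol replicates 2 and 3 and 2.32 and 7.78 in vehicle replicates 2 and 3. Mertk had a region 3.56 kb beyond the gene in estradiol replicate 3 (2.48) and vehicle replicates 2 and 3 (6.96 and 4.10), and a Mertk peak in vehicle replicate 3 alone at 6.13. Tyro3 had 3 regions, each in 1 library. Musk, the agrin-responsive kinase of the neuromuscular junction, had a region 24.1 kb beyond its far end in 5 libraries, chr4:58401984-58402227, with heights of 3.99, 6.51 and 9.91 in estradiol replicates 1 to 3 and 4.68 and 5.56 in vehicle replicates 2 and 3. The highest was an estradiol value and the groups overlapped.

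Alk, a receptor expressed in the nervous system and linked to body weight in mice, had 10 regions over its 735.7 kb. The most repeated one, 413.4 kb inside at chr17:72191190-72191323, had heights of 5.07 and 3.82 in estradiol replicates 2 and 3 and 5.30 and 4.38 in vehicle replicates 2 and 3. A region at the Alk start was in estradiol replicate 3 (3.59) and vehicle replicates 2 and 3 (4.06 and 3.54). Ephb2, a receptor for ephrin-B ligands, had 6 regions, of which one 4.93 kb before the start reached 4 libraries with heights of 8.0 and 3.37 in estradiol replicates 2 and 3 and 7.42 and 2.70 in vehicle replicates 2 and 3. Ryk, a Wnt co-receptor without kinase activity, had 8 regions, every one in a single library and none above a height of 3.82. Epha6 had the second tallest single-library peak, 9.30 in estradiol replicate 3, 468.0 kb inside the gene. Epha3 had a start peak of 5.63 in estradiol replicate 1 alone, and Ddr1 one of 6.24 near its start in vehicle replicate 3 alone. The start regions of Epha5, 1 in estradiol replicate 2 and 1 in vehicle replicate 3, also lie in the predicted gene Gm42163. Epha2, Ror1, Met, Ptk7 and Ros1 completed the set with 1 or 2 regions each, all in single libraries.

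Most receptor peaks rested on few fragments. Over all 241 receptor peaks, taking the strongest per library and region, the estimated summit fragments ran from 4 to 43 with a median of 6. In the 91 single-library regions they ran from 4 to 12 with a median of 5 and a median width of 44 bp. In the 16 regions of 4 or more libraries the median was 7, with summits 14 to 146 bp apart and a median width of 164.5 bp; a region is the union of its peaks, so its width grows with the libraries joined. All 13 regions present in 4 or 5 libraries lacked vehicle replicate 1, the shortest list.

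Estradiol and vehicle libraries were then compared by the number of receptor genes marked in each. Gene-end peaks were found at 6, 9 and 10 receptor genes in estradiol replicates 1 to 3 and at 2, 7 and 14 in vehicle replicates 1 to 3. The means were 8.33 ± 2.08 in estradiol and 7.67 ± 6.03 in vehicle libraries (SD, n = 3 each), a difference of 0.667 genes with p = 1.0 by a two-sided exact permutation test, in which the smallest possible p is 0.1. Distal peaks were found at 16, 16 and 23 receptor genes in estradiol replicates 1 to 3 and at 6, 19 and 27 in vehicle replicates 1 to 3. Their means were 18.3 ± 4.04 in estradiol and 17.3 ± 10.6 in vehicle libraries (SD, n = 3 each), a difference of 1.0 with an exact permutation p of 1.0. The vehicle libraries held both the lowest and the highest count in each case. Within replicates 1 and 2 the differences were 3.0 gene-end and 3.5 distal genes, and in replicate 3 they were -4.0 and -4.0. Without vehicle replicate 1 they were -2.17 and -4.67, and without estradiol replicate 3 they were -0.167 and -1.33.

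As a share of its list, each estradiol library gave 0.262%, 0.269% and 0.308% of its peaks to receptor genes, and each vehicle library 0.166%, 0.270% and 0.360%. In both groups the order of these shares was that of the list lengths, so the share does not remove the difference in length. The mean was 0.279% ± 0.0246 in estradiol and 0.265% ± 0.0972 in vehicle libraries (SD, n = 3 each), which overlapped, with an exact permutation p of 0.9. With every list cut to its 5421 tallest peaks, the shares were 0.258%, 0.184% and 0.221% in estradiol libraries and 0.166%, 0.111% and 0.148% in vehicle libraries. Each estradiol value then lay above each vehicle value, 14, 10 and 12 peaks in the estradiol lists against 9, 6 and 8 in the vehicle lists, a difference of 0.0799 percentage points with an exact permutation p of 0.1, the smallest that 3 against 3 libraries allow and above the 0.05 threshold. It was 0.0830 within replicates 1 and 2 and 0.0738 in replicate 3. With peaks reaching only 10 kb beyond the gene the equal lists overlapped, with a difference of 0.0553 and an exact permutation p of 0.2. The values at equal length for the separate batches and at 10 kb were chosen after seeing the data. The cut kept all of vehicle replicate 1, to a lowest height of 2.00, but stopped at 5.43 and 7.93 in vehicle replicates 2 and 3. In estradiol replicates 1 to 3 it stopped at 4.45, 5.86 and 6.36. Other genes were not compared at equal length, so the separation is not shown to be particular to the receptors.

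By gene, 18 of 53 receptor genes (34.0%, beside 20.9% of all genes) had peaks in more estradiol than vehicle libraries, and 9 (17.0%, beside 14.0%) in more vehicle than estradiol libraries. Taken apart, gene-end peaks were in more estradiol libraries at 6 genes (11.3%, beside 12.6% of all genes) and in more vehicle libraries at 7 (13.2%, beside 8.72%), and distal peaks at 17 (32.1%, beside 14.8%) and 11 (20.8%, beside 12.7%). Leaving out replicate 1 of both groups gave 11 genes (20.8%) with more estradiol and 12 (22.6%) with more vehicle libraries, beside 10.5% and 15.3% of all genes. Replicates 1 and 2 alone gave 16 (30.2%) and 5 (9.43%), beside 20.7% and 8.28%, and replicate 3 alone 3 (5.66%) and 6 (11.3%), beside 5.83% and 11.9%. The balance between the groups turned with the libraries used at the receptor genes and at all genes alike. These subsets were chosen after seeing the data.

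**Figure D4:**
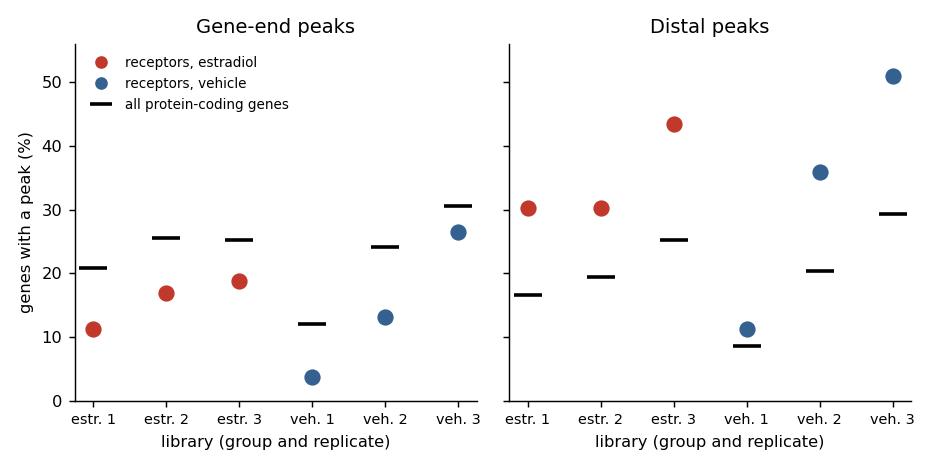
Share of genes with a gene-end peak (left) and a distal peak (right) in each library. Circles are the 53 receptor genes, red for estradiol and blue for vehicle libraries, and black bars are all 21887 protein-coding genes. Receptor circles lie under the bar at gene ends and over it at distal positions in each of the 6 libraries.

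Set against all protein-coding genes, gene-end peaks were less common at the receptor genes in each library. They marked 11.3%, 17.0% and 18.9% of receptor genes in estradiol replicates 1 to 3, beside 20.8%, 25.6% and 25.2% of all genes, and 3.77%, 13.2% and 26.4% in vehicle replicates 1 to 3, beside 12.1%, 24.1% and 30.6%. Distal peaks marked 30.2%, 30.2% and 43.4% of receptor genes in the estradiol libraries, beside 16.6%, 19.4% and 25.3% of all genes, and 11.3%, 35.8% and 50.9% in the vehicle libraries, beside 8.53%, 20.4% and 29.2%. The libraries share genes and tissue, so this is a description and was not tested.

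Receptor genes are long, with a median span of 69.7 kb beside 17.2 kb for all protein-coding genes, and length moved with the presence of peaks. The 13 receptor genes without a peak had a median span of 22.1 kb and the 40 with one 104.3 kb. Spearman's correlation between span and number of regions was 0.558 over the 53 receptor genes and 0.500 over all 21887, across genes that share the same libraries. Of the genes spanning 100 kb or more, 21 of 23 receptor genes had a region (91.3%), as did 2217 of 2429 genes in all (91.3%). Gene-end regions were then found at 43.5% of the receptor genes, beside 38.0% of long genes in all, gene-end regions in all 6 libraries at 4.35%, beside 8.65%, and any region in all 6 libraries at 8.70%, beside 15.1%. Regions inside the span numbered 12.4 per Mb at receptor genes and 21.2 per Mb at all genes, and 10.5 and 15.1 per Mb among the long ones. The part of length in the receptor counts was not tested.

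The pathway around the receptors was described with 3 lists: 61 ligands, 13 co-receptors and 44 signalling proteins downstream. Signalling genes, such as adaptors, RAF and MEK kinases and AKT, had a region at 42 of 44 (95.5%) and a gene-end region at 34 (77.3%), beside 60.8% and 37.5% of all genes. Their median span of 62.0 kb was close to the receptors' 69.7 kb. Their gene-end region was in all 6 libraries at 7 genes (15.9%, beside 10.3%): the adaptors Shc1 and Irs2, the kinases Araf, Map2k1 and Akt2, the PI3K subunit Pik3r2 and the ubiquitin ligase Cbl, which removes active receptors. Ligand genes had a region at 36 of 61 (59.0%), a gene-end region at 9 (14.8%) and none at a gene end in all libraries, while 8 of 13 co-receptor genes had a region and 5 a gene-end region. One ligand gene (1.64%, beside 0.982% of all genes) had a region in all estradiol and no vehicle libraries. This was Pdgfc, a platelet-derived growth factor, inside the gene at chr3:81154480-81154740 with heights of 8.16, 8.24 and 7.90 in estradiol replicates 1 to 3. One signalling gene (2.27%, beside the same 0.982%) did too, Spry4, a feedback inhibitor of receptor signalling, at chr18:38592386-38592435 with heights of 3.26, 2.97 and 2.91. None of the 3 lists had a gene with the reverse pattern.

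**Figure D5:**
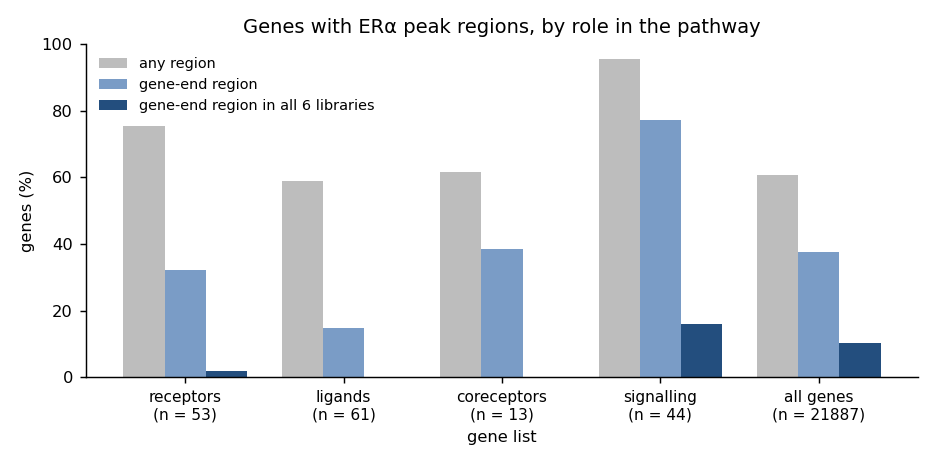
Share of genes with an ERα peak region by role in the pathway. Bars start at 0 and give the percentage of genes with any region, with a gene-end region and with a gene-end region in all 6 libraries, for the 53 receptors, 61 ligands, 13 co-receptors, 44 signalling genes and all 21887 protein-coding genes. Signalling genes have the highest bars of each kind, and the receptors stand above all genes for any region but below them for gene-end regions.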

How the data were processed

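ERα CUT&RUN was measured in 6 libraries, 3 per group, and the authors deposited 1 mm10 peak list per library in the narrowPeak layout of MACS2. Each deposited peak carries a score, a fold enrichment at its summit, the −log10 p-value and −log10 q-value and a summit offset. Cutadapt, Bowtie2, Picard, SAMtools, deepTools and MACS2 are named, without versions, per the submitters' processing notes. Peak names carry a q of 0.01, and the smallest deposited −log10 q was 2.00 to 2.01 over the lists. Read depth is not given.

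From the lists, peaks were assigned to 21887 protein-coding genes of RefSeq GRCm38.p6 (reach 50 kb, gene ends 1 kb) and joined where they overlapped by 1 bp or touched. Exons and introns were not separated, since the annotation used gives spans only. Strand and starts came from the RefSeq promoter table, which held 45 of 53 receptor genes, so the gene ends of the others have no direction. Summit fragments were estimated from each peak's fold and −log10 p under the formula that MACS2 is assumed to use, matched within 0.0002, and are counts of fragments only if that formula holds. Library values were compared with a two-sided exact permutation test written in Python 3.11.15 with numpy 2.4.6. The lists were handled with pandas 2.3.3, and scipy 1.17.1 was used for the summit fragments and Spearman's correlation. The scripts were tested on simulated peaks. Described with values were each receptor gene with a region in all 6 libraries or in all of one group and none of the other, and the 10 regions with the highest lowest −log10 q over the libraries holding them. Other genes and regions were described after their values were seen. The receptor genes, the gene lists and the tests were chosen with earlier results of these data known. Alternatives tried were another reach (10 or 100 kb), gene ends of 2500 bp, −log10 q of at least 5, lists of equal length, summits in place of peaks, joining within 500 bp, each library left out, each batch alone and the replicate number as a block.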

Additional observations from a re-analysis of the deposited data

How the results depend on the processing

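Over the left-out libraries the estradiol minus vehicle difference ran from -2.17 to 3.83 genes with a gene-end peak, from -4.67 to 5.83 genes with a distal peak and from -0.0356 to 0.0616 percentage points of the list. It was lowest without vehicle replicate 1 for each of them, and without estradiol replicate 3 it was -0.167 gene-end and -1.33 distal genes. With replicate 3 only it was -4.0, -4.0 and -0.0527, and with 10 kb reach the distal difference was -1.0 and the share -0.00920; no planned setting beyond these turned a direction. Regions in all estradiol and no vehicle libraries numbered 2 with all libraries, 0 at −log10 q of at least 5, 0 with lists of equal length, 2 to 5 over the left-out libraries, 6 within replicates 1 and 2 and 27 with replicate 3 only; with fewer libraries the rule is easier to meet. The reverse count was 0 with all libraries, 0 to 1 over the left-out libraries, 1 within replicates 1 and 2 and 47 with replicate 3 only. Receptor genes with a gene-end region in all libraries numbered 1 with all libraries, 0 at −log10 q of at least 5, 1 to 3 over the left-out libraries and 8 with replicate 3 only. Receptor genes with peaks in more estradiol libraries numbered 18 with all libraries, 11 with replicates 2 and 3 and 3 with replicate 3 only, and those with peaks in more vehicle libraries 9, and 5 with replicates 1 and 2. Pairing libraries by number (replicate block), 10 regions were in the estradiol member alone of at least 2 pairs and in the vehicle member alone of none. The opposite was seen at 2, and neither count was made over all regions. The related unpaired pattern, at least 2 estradiol and no vehicle libraries, held 8 receptor regions (5.80%, beside 3.71% of all regions). Its reverse held 2 (1.45%, beside 2.60%). The 3 differences above had an exact paired p of 1.0 (smallest possible 0.25). Same-numbered libraries did not deviate together (correlations of -0.0293 to 0.0213 over all regions), so the block is shown as a setting only. The cause of these changes was not tested. Most receptor peaks rest on few estimated fragments. A peak missing from a list was not called there, which does not show that it was absent.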
